A study of Homo sapiens with 6 samples.

Results

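The circadian clock genes examined here were PER1, PER2, PER3, CRY1, CRY2, BMAL1, CLOCK, NR1D1, NR1D2 and BHLHE40. They were chosen by name from the core of the clock, with earlier results of these data known. All 10 were found among the 19198 genes of the table. They were measured by RNA-Seq in MCF10A, an established, non-tumorigenic human mammary epithelial cell line, in 2 conditions of 3 samples each. The number of samples follows the labels, which list 3 for each condition, whereas the design text of the series speaks of 2 replicates. Both conditions were kept in DMEM:F12 with horse serum. The cells with growth factors also received insulin, epidermal growth factor (EGF), cholera toxin and hydrocortisone, and the cells without growth factors had all 4 of these agents removed together, so the effects of the single agents cannot be told apart. Both groups come from the same line, nothing in the labels says that the samples were separate cultures, and p-values then measure only the spread between these samples, which may be technical. The hour of harvest is not given, and with 1 harvest per sample a changed mean level and a shifted phase of a rhythmic transcript cannot be told apart.

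The clock is a transcriptional feedback loop that runs in most cells of the body, the mammary epithelium included. BMAL1 and CLOCK form a dimer that binds E-box sequences and switches on the Period and Cryptochrome genes, whose proteins return to the nucleus and repress that dimer. NR1D1 and NR1D2 (REV-ERB alpha and beta) repress BMAL1, the ROR receptors activate it through the same elements, BHLHE40 (DEC1) represses transcription from E-boxes, and the factors DBP, TEF and HLF act on D-boxes. PER1 and PER2 are also known as genes that glucocorticoids, cyclic AMP and serum can induce directly, and hydrocortisone is a glucocorticoid while cholera toxin raises cyclic AMP.

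The results turn on the 3 Period genes, and the stretches before their RefSeq start sites (GRCh38.p14, the hg38 assembly) are shown because they carry clock elements of different kinds. Capitals mark the match to the motif, and each sequence is written on the strand of its gene. PER1 lies on chromosome 17 (8140472 to 8156506, minus strand), PER2 on chromosome 2 (238244044 to 238290102, minus strand) and PER3 on chromosome 1 (7784291 to 7845177, plus strand), all as protein-coding genes in Gencode coordinates for hg38. The RefSeq starts used for PER1 (8152404) and PER2 (238288610) lie inside these Gencode spans, and so do their stretches.
PER1, chr17:8152436-8152654, minus strand: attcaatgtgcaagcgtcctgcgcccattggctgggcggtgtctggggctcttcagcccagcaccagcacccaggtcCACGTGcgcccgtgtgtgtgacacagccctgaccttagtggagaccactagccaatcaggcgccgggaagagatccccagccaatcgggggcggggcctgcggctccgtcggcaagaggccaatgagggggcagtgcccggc
PER2, chr2:238288790-238288819, minus strand: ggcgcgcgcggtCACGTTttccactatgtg
PER3, chr1:7784041-7784290, plus strand: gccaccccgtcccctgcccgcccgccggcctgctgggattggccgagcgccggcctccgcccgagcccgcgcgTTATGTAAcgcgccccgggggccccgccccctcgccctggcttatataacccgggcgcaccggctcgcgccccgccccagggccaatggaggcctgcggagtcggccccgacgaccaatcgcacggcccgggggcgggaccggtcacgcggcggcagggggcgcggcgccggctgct
The PER1 stretch has 219 bases, because exons of other transcripts cover 31 of the 250 bases before that start. It holds the E-box CACGTG, whose first base lies 173 bases before the start. The PER2 stretch is limited to 30 bases, because exons of other transcripts cover 216 of the 250 bases before that start, and holds the E-box variant CACGTT at 197 bases. The PER3 stretch holds a D-box, searched as TTANGTAA, at 177 bases. Both strands were searched in 35116 windows of 250 bases, and 6.34% of them hold CACGTG, 4.55% hold CACGTT and 1.98% hold TTANGTAA. Among the other members, CACGTG was found before NR1D2 and BHLHE40, CACGTT before CRY1, CRY2, CLOCK and NR1D1, and TTANGTAA before NR1D2. The ROR element core TAGGTCA (1.61% of all windows) was found before CRY2 alone, and neither the cyclic AMP response element TGACGTCA (1.65%) nor the glucocorticoid element searched as ACANNNTGT (4.61%) has a match in the windows of the 10 genes. A match or its lack describes the letters of these windows and says nothing of binding.

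Values are normalized counts, which are read counts divided by a size factor for each sample, and are given for replicates 1, 2 and 3 in that order. A gene is called changed where limma gave an adjusted p below 0.05 over the 16988 genes tested together with a change of at least 2-fold. By this rule 2 of the 10 clock genes, PER1 and PER2, fell without growth factors and none rose, against 1.97% of all tested genes that fell, 4.36% that rose and 6.33% called in either direction. The 2 groups of 3 samples did not overlap for 5 of the 10 genes (PER1 and PER2 lower, PER3, CRY1 and NR1D2 higher), and 25.6% of all tested genes showed such a separation. The median log2 change of the 10 genes was 0.18, beside −0.03 over all genes tested. In such bulk samples fewer cells of a type and less RNA per cell cannot be told apart.

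**Figure D1:**
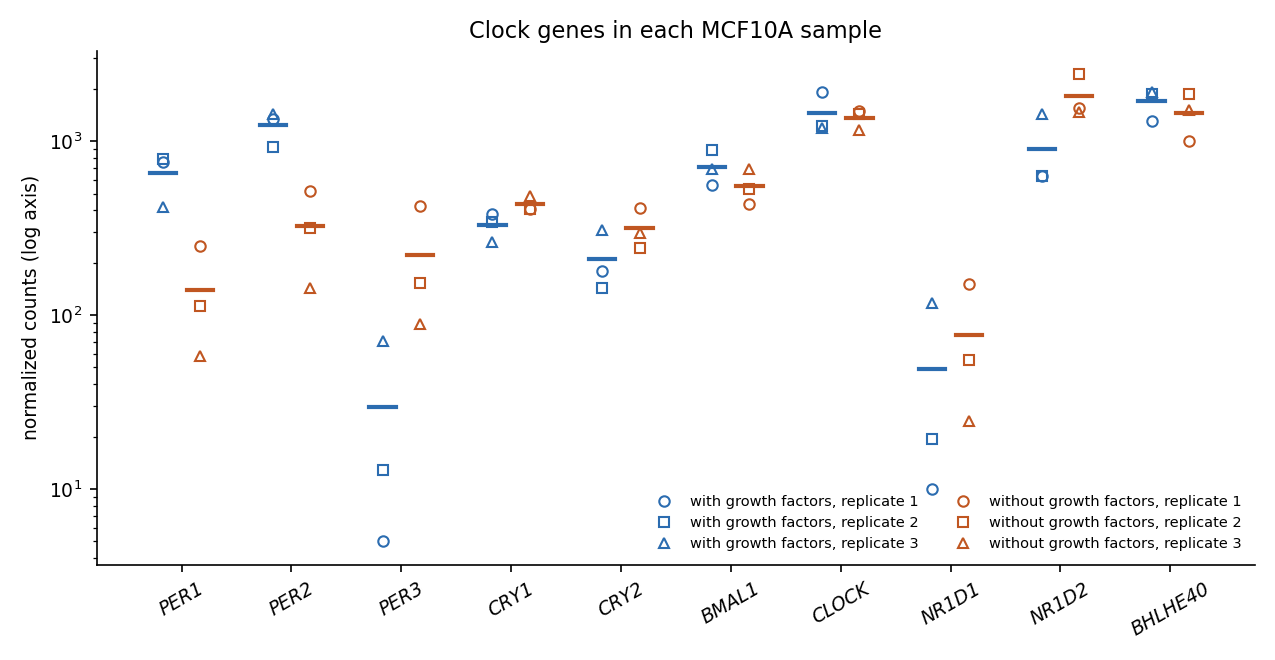
Normalized counts (log axis) of the 10 clock genes in each MCF10A sample, with growth factors in blue and without in orange, where each symbol is a replicate and each bar the mean of 3. PER1 and PER2 lie lower in all 3 samples without growth factors, PER3 and NR1D2 lie higher in all 3, and BMAL1, CLOCK and BHLHE40 overlap between conditions.

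The samples held 7472418 to 28672630 reads assigned to genes, the fewest in replicate 3 without growth factors, and a count of 3 reads corresponds to 1.76 to 6.71 normalized counts. Over all genes 1076 were called, and 445 to 2483 when each sample in turn was left out, the highest count without replicate 3 with growth factors. The labels call the cells luminal, whereas the study describes MCF10A as normal-like basal cells. Of 9 luminal markers, 8 are in the table (PGR is not analysed here) and their summed level was 9115 to 18676 with and 18425 to 31712 without growth factors, while 5 basal markers summed to 34917 to 54808 and 34123 to 144719. KRT8 and KRT18 had a higher mean without growth factors. The other 6 luminal markers had a lower mean without growth factors, with KRT19 called lower (log2 change −2.31, limma adjusted p = 0.0196) and ESR1 at −2.99 (0.0632). Of the basal markers, TP63 was called lower (−4.18, 0.0270), and KRT5 and ITGB4 had a lower mean without growth factors. KRT14 and KRT17 had a higher mean, with log2 changes of 2.69 and 2.44 (limma adjusted p = 0.184 and 0.0877). The groups did not overlap for KRT17. CDH1 (E-cadherin) was 20039, 13132 and 12961 with growth factors and 609.6, 13234 and 13118 without, so replicate 1 without growth factors stood apart. DSP, the other epithelial marker, was 31201, 14059 and 26545 with and 4348, 11249 and 8090 without. Its groups did not overlap (log2 change −1.63, limma adjusted p = 0.0933). The 3 mesenchymal markers summed to 3728 to 11148 with and 95680 to 180037 without growth factors, and all 3 were called higher. PTPRC, the 1 leukocyte marker of 4 that is in the table, lay at 0 to 1.97 and 10.1 to 13.8. The 3 endothelial markers summed to 100 to 1009 and 240 to 1610 (CDH5 was called higher without growth factors with a log2 change of 3.37 and limma adjusted p = 0.0282). PLIN1, the 1 adipocyte marker of 2 in the table, lay at 24.0 to 57.1 and 7.87 to 13.4. The part of cell state and of these markers in the values of the clock genes was not tested.

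PER1 and PER2 encode Period proteins, the limiting partners of the repressor complex, and both transcripts were lower without growth factors. PER1 was 754.5, 785.0 and 418.1 normalized counts in samples with growth factors and 249.0, 112.8 and 58.1 without. All 3 samples without growth factors lay below all 3 with them, and replicate 3 was the lowest sample of each condition. The means were 653 ± 204 (SD, n = 3) and 140 ± 98.3 (SD, n = 3), a 4.66-fold lower level, and PER1 fell by 2.40 on the log2(normalized count + 1) scale (SE 0.54, 95% interval −3.64 to −1.17, limma adjusted p = 0.0364).

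PER2 was 1348, 929.2 and 1441 normalized counts in samples with growth factors and 519.9, 318.0 and 143.1 without. Again the groups did not overlap, and replicate 3 without growth factors was the lowest sample. The means were 1240 ± 273 (SD, n = 3) and 327 ± 189 (SD, n = 3), a 3.79-fold lower level, and PER2 fell by 2.08 on the log2 scale (SE 0.47, 95% interval −3.15 to −1.01, limma adjusted p = 0.0362). Both calls lay near the threshold. With edgeR on the recovered reads the adjusted p was 0.055 for PER1 and 0.054 for PER2, and with limma without the variance trend it was 0.064 and 0.071. Leaving out replicate 1 (limma adjusted p 0.131 for PER1 and 0.125 for PER2) or 2 (0.113 and 0.065) with growth factors also ended both calls. So did leaving out replicate 2 (0.123 and 0.107) or 3 (0.113 and 0.098) without growth factors. Both calls stayed without replicate 3 with growth factors (0.0248 and 0.0492) and without replicate 1 without growth factors (0.0140 and 0.0183). With each sample left out in turn, the log2 change lay between −2.94 and −1.90 for PER1 and between −2.51 and −1.58 for PER2.

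PER3, the Period gene that is dispensable for the core rhythm, had a higher level without growth factors. It was 5.01, 12.9 and 70.8 normalized counts with growth factors, from 4, 22 and 72 reads, and 426.5, 152.8 and 89.4 without, from 466, 233 and 40 reads. The groups did not overlap, but replicate 3 with growth factors came close to replicate 3 without them, and the exact Poisson 95% intervals of these 2 samples, which cover counting error only, were 55.4 to 89.2 and 63.9 to 122 normalized counts. The means were 29.6 ± 35.9 (SD, n = 3) and 223 ± 179 (SD, n = 3), a 7.54-fold difference, and the log2 change was 3.32 (SE 0.94, 95% interval 1.16 to 5.47, limma adjusted p = 0.0806), which did not pass the test. Without replicate 3 with growth factors the log2 change was 4.31 and the adjusted p 0.0130, and with DESeq2 on the recovered reads the adjusted p was 0.0113. Without replicate 1 with growth factors the log2 change was 2.52 (adjusted p 0.222), and leaving out any of the other 4 samples gave an adjusted p of 0.129 to 0.210. edgeR gave 2.93 (adjusted p 0.135), and 10 added to each normalized count gave 2.66 (adjusted p 0.0757).

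To compare levels between genes, normalized counts were divided by the length of all exons of the gene in kb. The summed level of the 3 Period genes per kb was 298.6, 244.8 and 271.7 with growth factors and 161.4, 79.8 and 39.5 without, so the groups did not overlap. PER3 made up 0.207%, 0.648% and 3.21% of that sum with growth factors and 32.5%, 23.6% and 27.9% without. Its share depends on the lower PER1 and PER2 as well as on its own level. PER3 itself was 0.617, 1.59 and 8.71 per kb with and 52.5, 18.8 and 11.0 without growth factors, so it differed little between the samples numbered 3. The share of PER3 was the smallest of the 3 in each sample with growth factors and lay above that of PER1 (20.2% to 22.03%) in each sample without them. The mean share of PER3 was 1.35% ± 1.62 (SD, n = 3) with and 28.0% ± 4.48 (SD, n = 3) without growth factors.

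**Figure D2:**
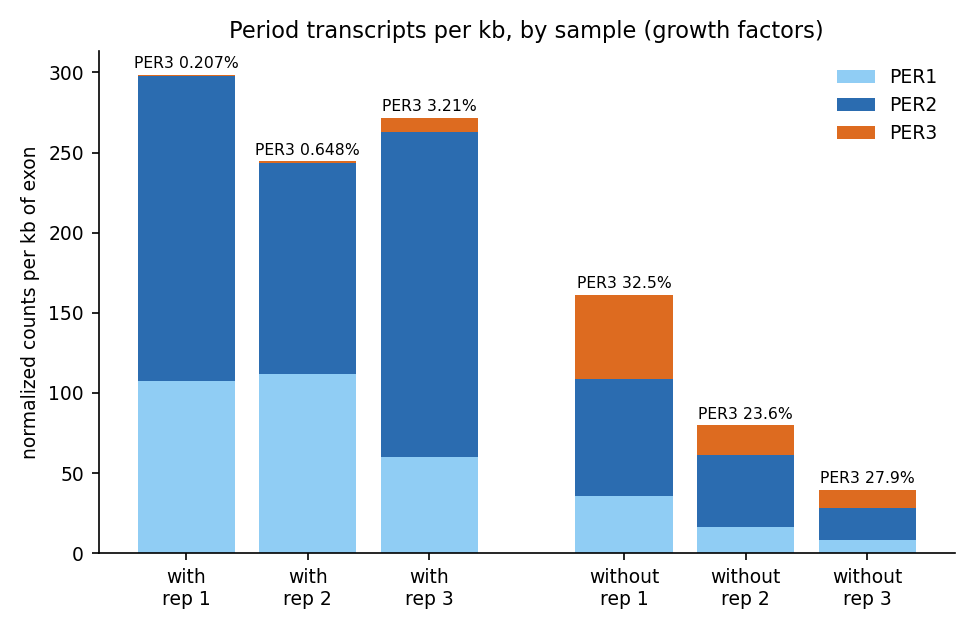
Stacked bars of PER1, PER2 and PER3 in normalized counts per kb of exon for each of the 6 samples, with the share of PER3 printed above each bar. The bars are shorter in the 3 samples without growth factors, and the PER3 segment makes up at most 3.21% of the bar with growth factors and at least 23.6% without.

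The log2 ratio of family members within each sample, from normalized counts with 1 added, was compared for 6 pairs with exact two-sided permutation tests, for which 3 samples against 3 cannot give a p below 0.1. The log2 ratio of PER1 to PER3 was 5.11 ± 2.30 (SD, n = 3) with growth factors and −0.61 ± 0.17 (SD, n = 3) without, and the 2 groups did not overlap (exact permutation p = 0.1, adjusted over the 6 pairs 0.3). The log2 ratio of PER2 to PER3 was 6.07 ± 1.74 with and 0.67 ± 0.38 without growth factors (SD, n = 3 each, exact permutation p = 0.1, adjusted 0.3), also with no overlap. The size of both changes depends on the added count, since PER3 was low with growth factors: they were −5.72 and −5.40 with 1 added and −4.97 and −4.70 with 10 added. PER1 and PER2 differed in their log2 change by −0.32, with overlapping ratios (exact permutation p = 0.6, adjusted 0.9). In the remaining 3 pairs the change in log2 ratio was −0.22 for CRY1 to CRY2, −0.09 for NR1D1 to NR1D2 and 0.31 for CLOCK to BMAL1, and the ratios of the 2 conditions overlapped in each (exact permutation p of 0.6, 0.9 and 0.8, adjusted 0.9 each). Of the 6 pairs, the pairs with PER3 alone had ratios that did not overlap, and neither reached an adjusted p below 0.05.

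The Cryptochromes, the partners of the Period proteins and the stronger repressors of BMAL1 and CLOCK, did not pass the test. CRY1 (chromosome 12, 106991364 to 107093549, minus strand) was 382.2, 343.9 and 261.7 normalized counts in samples with growth factors and 407.3, 407.8 and 485.2 without. Every sample without growth factors lay above every sample with them, by as little as 407.3 against 382.2, and the log2 change of 0.41 (SE 0.30, limma adjusted p = 0.514) did not pass the test. CRY2 (chromosome 11, 45847118 to 45883248, plus strand) was 179.2, 142.4 and 309.9 with growth factors and 413.7, 241.9 and 295.1 without, and the groups overlapped (log2 change 0.63, SE 0.40, limma adjusted p = 0.444). The 95% intervals, −0.27 to 1.08 for CRY1 and −0.28 to 1.54 for CRY2, leave room for a rise above 2-fold in both. The 2 genes summed per kb to 103 ± 7.17 with and 142 ± 15.2 without growth factors (SD, n = 3 each).

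The activators BMAL1 and CLOCK, which dimerize on E-boxes, did not pass the test. BMAL1 (chromosome 11, 13276652 to 13387266, plus strand) was 556.4, 891.7 and 693.5 normalized counts in samples with growth factors and 432.9, 533.1 and 690.9 without, with overlapping groups and a log2 change of −0.37 (SE 0.31, 95% interval −1.08 to 0.35, limma adjusted p = 0.589). CLOCK (chromosome 4, 55427903 to 55546909, minus strand) was 1930, 1219 and 1190 with growth factors and 1495, 1440 and 1156 without. Its log2 change of −0.06 (SE 0.30, 95% interval −0.73 to 0.62, limma adjusted p = 0.949) was the smallest of the 10 genes, and its sign turned under quantile normalization, at 0.05. The interval of CLOCK excludes a 2-fold change in either direction, and that of BMAL1 a 2-fold rise.

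The REV-ERB receptors, which bind heme and repress BMAL1, gave values of different precision. NR1D2 (chromosome 3, 23945286 to 23980617, plus strand) was 632.9, 631.5 and 1426 normalized counts in samples with growth factors and 1559, 2431 and 1471 without. The groups were separated only by the gap between 1426 and 1471, since replicate 3 with growth factors stood well above its group. The means were 897 ± 459 and 1820 ± 530 (SD, n = 3 each), a 2.03-fold difference, with a log2 change of 1.10 (SE 0.39, 95% interval 0.20 to 1.99, limma adjusted p = 0.157). Without replicate 3 with growth factors the log2 change was 1.49 and passed the test (adjusted p 0.0184). Leaving out any of the other 5 samples gave a log2 change of 0.87 to 1.23 (adjusted p 0.224 to 0.442). NR1D1 (chromosome 17, 40092793 to 40100589, minus strand) was 10.0, 19.3 and 118.0 with growth factors, from 8, 33 and 120 reads, and 150.1, 55.1 and 24.6 without, from 164, 84 and 11 reads. The spread within each condition was larger than the difference between them (log2 change 1.01, SE 0.97, 95% interval −1.22 to 3.23, limma adjusted p = 0.641), and the log2 change ran from 0.288 without replicate 1 to 2.005 without replicate 3 with growth factors. NR1D1 shares 473 of its 2630 exon bases with THRA on the opposite strand, which was 432.4, 216.8 and 350.2 with and 846.6, 280.6 and 335.4 without growth factors. The library kit kept the strand, but the strand setting of the counting is not given in the sources used here, so reads of the shared bases may belong to either gene.

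BHLHE40 (chromosome 3, 4979437 to 4985323, plus strand), an E-box repressor that also answers to hypoxia and serum, was 1312, 1867 and 1924 normalized counts in samples with growth factors and 996.7, 1870 and 1518 without. The groups overlapped (log2 change −0.25, SE 0.32, 95% interval −0.99 to 0.50, limma adjusted p = 0.743), and a 2-fold change in either direction lies outside the interval. Overlapping antisense genes lie at BHLHE40 (12.8% of its exon bases, BHLHE40-AS1 at 6.27 to 15.7 normalized counts) and at PER2 (2.65%, a long non-coding RNA at 5.90 to 11.7), both at levels far below those of BHLHE40 and PER2. At PER3, the gene UTS2 on the opposite strand covers 10.7% of the exon bases and is not analysed here. Long non-coding RNAs on the opposite strand, also not analysed here, cover 5.93% at PER3, 6.07% at BMAL1 and 1.97% at CRY1. TMEM165, on the opposite strand at 0.659% of the exon bases of CLOCK, lay at 1755 to 5918 normalized counts.

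**Figure D3:**
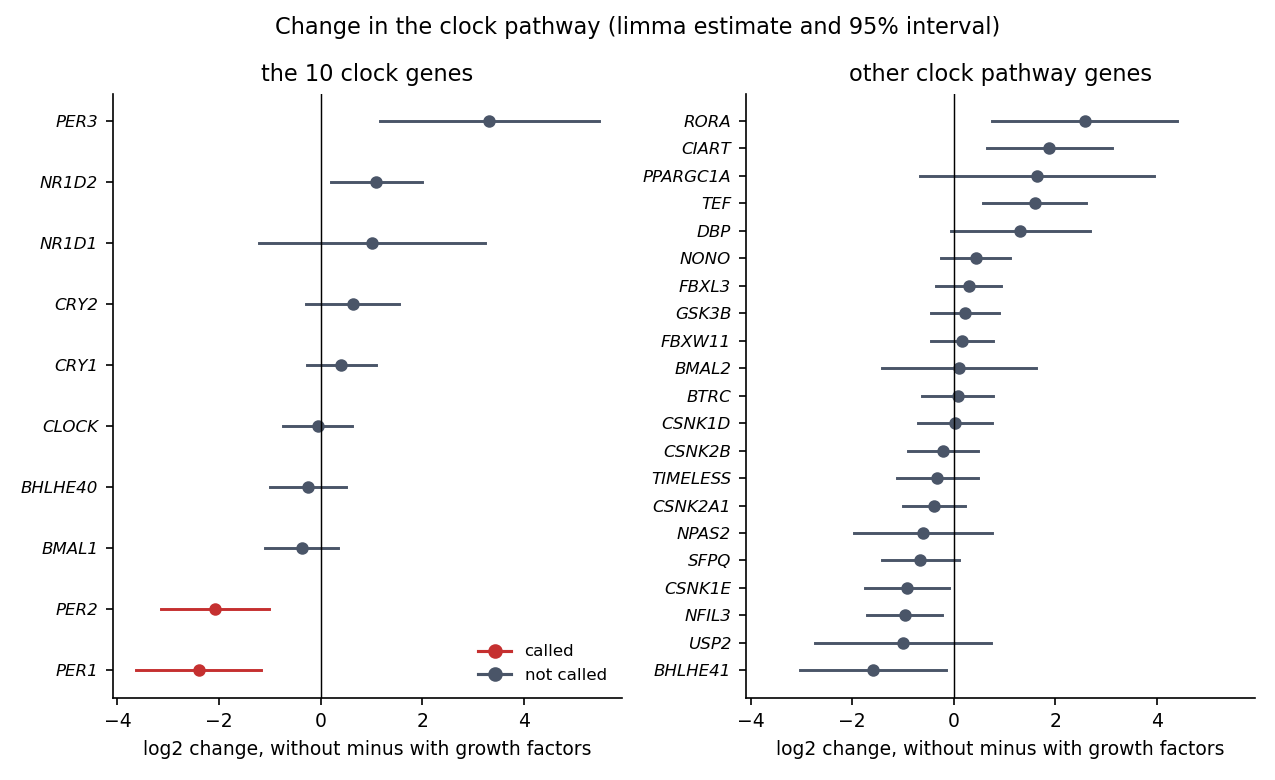
Log2 change (without minus with growth factors) with its 95% interval from limma for the 10 clock genes on the left and for the 21 other clock pathway genes that were tested on the right, with called genes in red. PER1 and PER2 are called, both lower without growth factors, and PER3 and RORA lie farthest to the right, at 3.32 and 2.58.

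Per kb of exon, BHLHE40 held the highest level in both conditions, at 484 normalized counts per kb with and 416 without growth factors. With growth factors it was followed by PER2 (175), NR1D2 (155), CLOCK (125), BMAL1 (103), PER1 (93.2), CRY1 (68.9), CRY2 (33.9), NR1D1 (18.7) and PER3 (3.64). In that order neighbours overlapped in their sample ranges, except BHLHE40 against PER2 and CRY1 against CRY2. Without growth factors the mean levels per kb were 314 for NR1D2, 118 for CLOCK, 90.6 for CRY1, 79.7 for BMAL1, 51.1 for CRY2, 46.1 for PER2, 29.1 for NR1D1, 27.4 for PER3 and 20.0 for PER1, and of neighbours in that order only NR1D2 and CLOCK did not overlap. PER2 thus stood next to BHLHE40 with growth factors and below both Cryptochromes in the mean without them.

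Of 25 other genes of the clock pathway, 21 were tested, HLF lay below the minimum mean of 10 normalized counts, and RORB, FBXL21P and HNF4A are not analysed here. None of the 21 was called by limma, and 6 had an unadjusted p below 0.05, beside 20% of all tested genes. edgeR called none, where it called 5.72% of all genes. DESeq2 called 2 (CIART and TEF, both higher without growth factors), where it called 12.4%. The median log2 change of the 21 was 0.08. The groups of samples did not overlap for 8 of the 21 genes, 4 higher (RORA, CIART, TEF and NONO) and 4 lower (BHLHE41, NFIL3, CSNK1E and SFPQ) without growth factors, beside the 25.6% of all tested genes. When replicate 3 with growth factors was left out, 3 of the then 22 tested genes (RORA, TEF and NFIL3) were called, and 14.9% of all tested genes were called in that fit.

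RORA, a nuclear receptor that activates BMAL1 and competes with the REV-ERBs, was 15.0, 6.44 and 70.8 normalized counts with and 123.6, 158.0 and 91.7 without growth factors. The groups did not overlap, with a log2 change of 2.58 (SE 0.80, limma adjusted p = 0.104, and 0.00763 with a log2 change of 3.49 without replicate 3 with growth factors). Leaving out replicate 2 with growth factors gave 1.85 (adjusted p 0.231), any of the other 4 samples an adjusted p of 0.203 to 0.304, and edgeR 2.05 (adjusted p 0.217).

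TEF, a D-box activator of the PAR bZIP family, was 114.0, 106.0 and 157.4 normalized counts with and 670.9, 335.7 and 237.0 without growth factors (log2 change 1.60, limma adjusted p = 0.0740, and 0.0432 with a log2 change of 1.77 without replicate 3 with growth factors). DBP of the same family, named here for its role after its values were seen, was 73.9, 37.5 and 122.0 with and 351.5, 141.6 and 107.3 without (log2 change 1.31, limma adjusted p = 0.271), and its groups overlapped. NFIL3, the repressor that opposes these factors on D-boxes, was 505.1, 472.8 and 365.0 with and 177.6, 280.6 and 232.5 without (log2 change −0.97, limma adjusted p = 0.129, and 0.0459 with a log2 change of −1.11 without replicate 3 with growth factors). None of the 3 passed the test with all samples. Leaving out any of the other 5 samples gave an adjusted p of 0.0981 to 0.198 for TEF and 0.228 to 0.350 for NFIL3.

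CIART, a repressor of BMAL1 and CLOCK, was 10.0, 12.3 and 6.89 normalized counts with and 44.8, 41.3 and 29.1 without growth factors (log2 change 1.89, limma adjusted p = 0.0830, 0.0273 without the variance trend, 0.0217 with DESeq2, and 0.0511 to 0.292 with each sample left out). BHLHE41 (DEC2), the close relative of BHLHE40, was 1100, 1562 and 1356 with and 141.9, 956.6 and 632.8 without (log2 change −1.58, limma adjusted p = 0.204), with the low value in replicate 1, and the log2 change was −0.77 without that sample. CSNK1E, a kinase that marks Period proteins for degradation, was 2788, 4921 and 6920 with and 2399, 2334 and 2518 without (log2 change −0.92, limma adjusted p = 0.201). The nuclear proteins NONO and SFPQ, which bind Period complexes, had log2 changes of 0.44 and −0.66 (limma adjusted p = 0.483 and 0.323). NPAS2 and BMAL2, which can stand in for CLOCK and BMAL1 and were named for that role after their values were seen, had log2 changes of −0.60 and 0.10 with overlapping groups (limma adjusted p = 0.650 and 0.961).

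**Figure D4:**
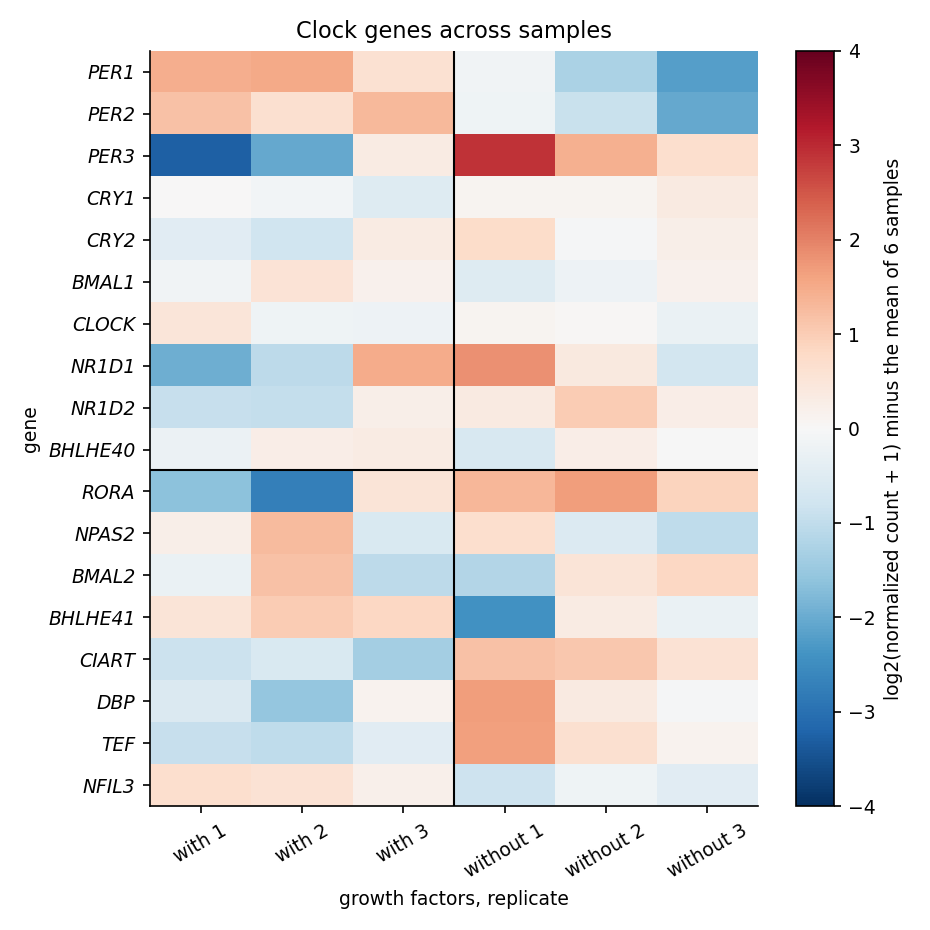
Log2(normalized count + 1) minus the mean of the 6 samples for the 10 clock genes above the line and 8 other clock pathway regulators below it, red for above and blue for below that mean, with a vertical line between the conditions. PER1 and PER2 are lower in all 3 samples without growth factors, PER3, RORA, TEF and CIART are higher in all 3, and replicate 3 with growth factors holds higher PER3, NR1D1 and RORA than the other 2 samples of its condition.

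Within a condition the clock genes also varied between samples. How often each sample was highest or lowest was not counted over all tested genes. The counts below therefore cannot be read as particular to the clock genes. Over all genes, leaving out replicate 3 with growth factors moved the calls from 1076 to 2483. With growth factors, replicate 3 was the highest of the 3 samples for 6 of the 10 genes (PER2, PER3, CRY2, NR1D1, NR1D2 and BHLHE40). Without growth factors, replicate 1 was the highest for 6 (PER1, PER2, PER3, CRY2, CLOCK and NR1D1) and replicate 3, the sample with the fewest reads, was the lowest for 6 (PER1, PER2, PER3, CLOCK, NR1D1 and NR1D2). PER3 and NR1D1 had the same order of samples in both conditions, with 70.8 and 118.0 normalized counts in replicate 3 with growth factors and 426.5 and 150.1 in replicate 1 without.

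Lists of genes known to respond to glucocorticoids, to cyclic AMP, or to serum and growth factors were measured beside PER1 and PER2. Serum itself was kept in both conditions. Of 11 glucocorticoid receptor targets tested, 2 were called, both lower, with a median log2 change of −0.56, beside the 1.97% of all tested genes called lower. DESeq2 called 6 of them, 5 lower and 1 higher (CRISPLD2, named after its values were seen), where it called 12.4% of all tested genes in either direction. FKBP5, a chaperone of that receptor, was 13484, 10934 and 3840 normalized counts with and 611.4, 610.4 and 512.0 without growth factors (16.3-fold lower, limma adjusted p = 0.00268), and ZBTB16, a zinc finger factor, was 789.5, 450.5 and 386.6 with and 3.66, 13.8 and 8.94 without (limma adjusted p = 0.00115). Replicate 3 with growth factors was the lowest sample of its condition for FKBP5, ZBTB16 and PER1, but the highest for PER2. Of 9 cyclic AMP response genes tested none was called by limma, and 1 had an unadjusted p below 0.05, beside 20% of all tested genes. For this list edgeR called none and DESeq2 called 1 (lower), where they called 5.72% and 12.4% of all tested genes. The median log2 change of the 9 was −0.43. Of 10 serum and growth factor early genes 1 was called, beside 6.33% of all tested genes called in either direction. It was IER3, higher without growth factors at 1031, 2123 and 1282 against 4084, 3208 and 5026 normalized counts (limma adjusted p = 0.0385). The median log2 change of the 10 was 0.71, with 7 positive and 3 negative. In limma 4 had an unadjusted p below 0.05, beside 20% of all tested genes. SPRY4 and DUSP6, named after their values were seen, had log2 changes of 2.79 and 1.82 (limma adjusted p = 0.172 and 0.201). MYC of that list, named after its values were seen, lay on the other side at 1557, 4964 and 1473 with and 832.9, 491.7 and 424.8 without growth factors (log2 change −2.01, limma adjusted p = 0.0530). DESeq2 called it lower (adjusted p 0.00135). The IER3 call was lost without the variance trend (adjusted p 0.0775), without replicate 1 with growth factors (0.131) and without replicates 1, 2 or 3 without growth factors (0.0899, 0.0905 and 0.170). The part of any single agent in the lower PER1 and PER2 was not tested.

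The genes whose pattern over the 6 samples was most like PER1, by Euclidean distance of the centred log2 values among 16987 other tested genes, were PTPRH, a receptor tyrosine phosphatase (distance 0.54), FAM72A (0.58) and FRMD4B (0.82). FAM72A has near-identical copies in the genome, so its count is uncertain. For PER2 the nearest genes were MTMR8 (0.51), TIPARP-AS1 (0.60) and RBM47, an RNA-binding protein (0.66), where TIPARP-AS1 is an antisense RNA and the strand setting bears on its count too. PER2 was the 27th nearest gene to PER1, at a distance of 1.21, and PER1 the 41st nearest to PER2. In replicate 3 without growth factors, FAM72A and MTMR8 lay at 4.47 and TIPARP-AS1 at 2.24 normalized counts. A count of 3 reads corresponds to 6.71 in that sample, so the distances of these genes rest partly on very few reads.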

How the data were processed

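Gene-level RNA-Seq values of 6 MCF10A samples, 3 with and 3 without growth factors, were used. Per the labels and the methods of the study, the authors made strand-specific libraries, trimmed single-end reads with cutadapt 1.6, aligned them to hg38 with TopHat2, counted reads per gene of Gencode version 22 with HTSeq 0.6 and divided the counts by DESeq2 1.8.1 size factors. The deposited values are thus a signal in normalized counts, not raw reads. Every value was a whole multiple of what 1 read is worth in its sample (tolerance 0.01 reads), so reads were recovered.

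Of 19198 genes, 16988 had a mean normalized count of 10 or more and were tested with limma 3.58.1 (R 4.3.3, empirical Bayes with a variance trend) on log2(normalized count + 1), 3 samples against 3, with Benjamini-Hochberg adjustment over all of them. The reported fit had no covariate. The test was tested on simulated data. edgeR 4.0.16 and DESeq2 1.42.0 on the recovered reads were alternatives, beside other pseudocounts, filters, scalings and thresholds, the replicate block and leaving out each sample. Levels per kb used the exon union of Gencode version 44 and promoters RefSeq. Where depth limits a value, its exact Poisson interval covers counting error only. The labels name no batch. Named genes were all 10 members, other clock pathway genes called or with groups that do not overlap, agent targets called, and the 3 genes nearest to each called member. The members and lists were chosen with earlier results of these data known. A further gene of the clock pathway list is not reported here.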

Additional observations from a re-analysis of the deposited data

How the results depend on the processing

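With limma as reported 1076 genes, 2 of the 10 clock genes (PER1 and PER2) and 0 of the 21 other clock pathway genes (6 at an unadjusted p below 0.05) were called. DESeq2 called 2112, 3 and 2, an adjusted p below 0.1 gave 1706, 3 and 2, and an adjusted p below 0.01 gave 418, 0 and 0. limma without the trend called 0 clock genes and 1 of the other genes (CIART), and edgeR called 0 of both. An unadjusted p below 0.05 was reached by 4 of the 10 clock genes under limma, limma without the trend, edgeR and DESeq2. Of all 16988 genes tested, 3400, 3261, 3420 and 3814 reached it in that order. The other pseudocounts, filters and scalings gave 2 clock genes. Leaving out each sample in turn gave 445 to 2483 genes, 0 to 4 clock genes and 0 to 3 other clock genes, most without replicate 3 with growth factors, where PER1, PER2, PER3 and NR1D2 were called, and 0 clock genes without replicates 1 or 2 with or replicates 2 or 3 without growth factors. The replicate block gave 967 genes, 2 clock genes (PER1 and PER2) and 0 other clock genes, and ended the IER3 call (adjusted p 0.0775). Same-numbered samples deviated from their condition means with correlations of −0.0726, −0.283 and −0.323 across genes, and differently numbered samples with −0.0677 to 0.291. Deviations of 3 samples from their own mean offset one another. These values therefore cannot settle whether the numbers pair the samples. 

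The log2 change of CLOCK turned positive under quantile normalization (0.0508), without replicate 1 with growth factors (0.17) and without replicate 3 without growth factors (0.06), within a range of −0.18 to 0.17 with samples left out. That of BHLHE40 turned positive without replicate 1 without growth factors (0.0070), within a range of −0.45 to 0.0070. With samples left out, the difference in log2 ratio ran from −0.74 to 0.0327 for PER1 to PER2, from −7.01 to −4.79 for PER1 to PER3, from −6.27 to −4.53 for PER2 to PER3, from −0.70 to 0.0585 for CRY1 to CRY2 (0.03 without replicate 1 without growth factors), from −0.85 to 0.52 for NR1D1 to NR1D2 (0.19 and 0.39 without replicates 2 and 3 without growth factors) and from 0.03 to 0.70 for CLOCK to BMAL1. The causes were not tested. The low reads of PER3 and NR1D1 limit their precision.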
